A study of Mus musculus with 6 samples.

Results

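The genes described here are 36 genes for cytosolic and mitochondrial molecular chaperones, out of 47643 reference gene models in the abundance tables, measured by RNA sequencing in mouse regulatory T cells. The list was drawn up with earlier results of these data known, though its rule uses no measured value. The genes were chosen by gene symbol, and each symbol matched 1 reference model. They comprise 5 genes of the HSP70 and HSP110 family, 8 HSP70 co-factors, 7 genes for HSP90 and its co-chaperones, 4 mitochondrial chaperones, the 8 subunits of the cytosolic chaperonin CCT, 2 prefoldin subunits, and a last pair made of the small heat shock protein gene Hspb1 and the transcription factor gene Hsf1. The 6 libraries came from natural regulatory T cells (nTregs) of spleen, taken from C57BL/6 mice that carry Foxp3-DTR/EGFP, an allele that places a diphtheria toxin receptor and green fluorescent protein under Foxp3. All cells had been activated for 2 days with IL-2 and antibodies to CD3 (bound to the plate) and CD28 (in solution). In 3 libraries the cells then received 100 nM of an agonist of EP4, a prostaglandin E2 receptor coupled to cyclic AMP, for 6 h, and in the other 3 they received DMSO vehicle for the same time. GFP-positive cells were sorted after the treatment, so every value describes cells that still carried the Foxp3 reporter. The age and sex of the mice are not given, and the labels do not say whether the 3 libraries of a group came from separate mice or cultures, so p-values measure only the spread between these libraries. In sorted bulk RNA, fewer cells with a transcript and less of it per cell cannot be told apart.

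Molecular chaperones bind unfolded or partly folded proteins and release them after cycles of ATP binding and hydrolysis. HSP70 acts early on many chains, with J proteins that deliver substrates and exchange factors that release ADP, and it can pass clients to HSP90, which finishes kinases and steroid receptors with the help of co-chaperones. Actin and tubulin take another route, through prefoldin into the ring-shaped chaperonin CCT, while proteins imported into mitochondria meet mitochondrial HSP70, the chaperonin HSP60 with its lid HSP10, and the HSP90 relative TRAP1. Under proteotoxic stress, heat shock factor 1 (HSF1) binds heat shock elements and drives many of these genes. Activated T cells grow and divide quickly, and their demand for protein folding is known to be high.

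The libraries rest on 4.32 to 5.65 gigabases of aligned sequence. This depth was inferred from the most common ratio of coverage to FPKM (fragments per kilobase of transcript, scaled to library size). Mitochondrially encoded genes gave 4.51 to 6.80% of the summed FPKM. The 6 genes listed as markers of regulatory T cells (Cd3e, Cd4, Foxp3, Il2ra, Ikzf2 and Ctla4) were all expressed, with a summed 1640 to 1810 FPKM in agonist libraries and 1488 to 1588 FPKM in vehicle libraries. Of the 28 markers of B cells, CD8 T cells, NK cells, myeloid cells, dendritic cells and red cells, 6 reached 1 FPKM in any library. The summed level of the 6 B cell markers ran between 3.76 and 6.26 FPKM in agonist libraries and between 5.76 and 6.07 FPKM in vehicle libraries. The 2 CD8 T cell markers summed to 4.53 to 6.40 FPKM with the agonist and 3.89 to 5.43 FPKM with vehicle, and the 3 NK cell markers to 0.177 to 3.41 FPKM with the agonist and 0.223 to 2.33 FPKM with vehicle. All 7 myeloid and all 5 dendritic cell markers stayed under 1 FPKM: S100a8, S100a9, Siglech and Clec9a were at 0 in every library, and the other 8 were detected, with Zbtb46 (up to 0.762 FPKM) and Lyz2 (up to 0.616 FPKM) the highest. The red cell markers summed to 1.20 to 4.14 FPKM in agonist libraries and 2.84 to 8.03 FPKM in vehicle libraries. Chaperone genes took 0.833 to 0.927% of all reference FPKM in agonist libraries and 0.912 to 1.16% in vehicle libraries.

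Chaperone transcripts were, as a group, slightly lower after the EP4 agonist. Of the 36 genes, 33 passed the filter for testing, which asked for 1 FPKM or more in at least 3 of the 6 libraries, and 32 of the 33 had a lower mean with the agonist than with vehicle on the log2(FPKM + 1) scale. Their median log2 fold change was -0.27, against a median of -0.03 over all 12186 tested genes, where the quartiles lay at -0.15 and 0.09 and 57.2% of genes were negative. The single positive value belonged to Bag3. The summed level of the 36 genes was 3510, 4044 and 3775 FPKM in agonist libraries 1, 2 and 3, against 3928, 4931 and 4490 FPKM in vehicle libraries 1, 2 and 3. The mean sum was thus 15.1% lower with the agonist, although agonist library 2 stood above vehicle library 1.

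No single chaperone gene passed the test that ignores replicate numbers. In limma with the treatment alone as a term and Benjamini-Hochberg adjustment over the 12186 tested genes, 0 of 33 members were called in either direction, where 0.0492% of all tested genes were called lower and 0.345% higher. The members' adjusted p-values in limma ran between 0.174 and 0.896, and 11 of the 33 had an unadjusted p under 0.05, as had 1701 of all tested genes.

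Libraries with the same replicate number varied together, and when the number entered limma as a block, 16 of the 33 chaperone genes fell and 0 rose. The 16 were Hsph1, Hsp90aa1, Stip1, Ahsa1, Fkbp4, Hspd1, Hspa9, Trap1, Tcp1, Cct3, Cct5, Cct6a, Cct7, Cct8, Pfdn2 and Hsf1, and their means were 15.5 to 31.5% lower in agonist libraries. In the same blocked fit 6.41% of all tested genes were called lower and 4.09% higher. When quantile normalization was added to the block, 8 of the 16 remained, namely Hsph1, Fkbp4, Hspd1, Hspa9, Trap1, Cct7, Pfdn2 and Hsf1, beside 3.91% of all tested genes called lower. The blocked calls needed all 3 pairs. In limma without pair 1 only Fkbp4 and Hsph1 passed, beside 90 of all 12186 tested genes lower and 151 higher. Without pair 2 or without pair 3, 0 members were called, with 21 and 18 members at an unadjusted limma p under 0.05. Of all 12186 tested genes, 2558 and 2432 were under that unadjusted level in the same 2 fits. The alpha-globin gene Hba-a1, on the red cell list, passed the same blocked test, with 0.601, 2.19 and 2.55 FPKM in agonist libraries 1, 2 and 3, against 1.45, 3.36 and 5.67 FPKM in vehicle libraries 1, 2 and 3 (limma, adjusted p = 0.0368 with the block, 0.0416 with quantile normalization as well and 0.528 without the block). Hba-a2, a close paralog, had 0.366, 0.586 and 1.20 FPKM in agonist libraries 1, 2 and 3, against 1.33, 2.87 and 1.96 FPKM in vehicle libraries 1, 2 and 3, and did not pass (limma, adjusted p = 0.0565 with the block). The part of red cell RNA in the chaperone values was not tested. The block was adopted because same-numbered libraries correlated in these same data, a choice that makes small blocked p-values more likely, and the labels do not say what the number stands for.

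The values themselves showed the same pattern without a model. In 14 of 33 genes all 3 agonist values lay below all 3 vehicle values, as in 12.1% of all tested genes, and the opposite arrangement occurred in 0 members. In 29 of 33 genes the agonist library was lower than the vehicle library of the same number in each of the 3 pairs, as in 31.6% of tested genes. Chaperone genes varied together between libraries: vehicle values fell in the order 2, 3, 1 in 29 of 33, against 18.9% of all tested genes. Counts over the members, here and above, are therefore not counts of separate observations. The median difference between members of a pair was -0.19, -0.27 and -0.28 on the log2(FPKM + 1) scale for pairs 1, 2 and 3, against -0.03 for all tested genes in each pair.

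**Figure D1:**
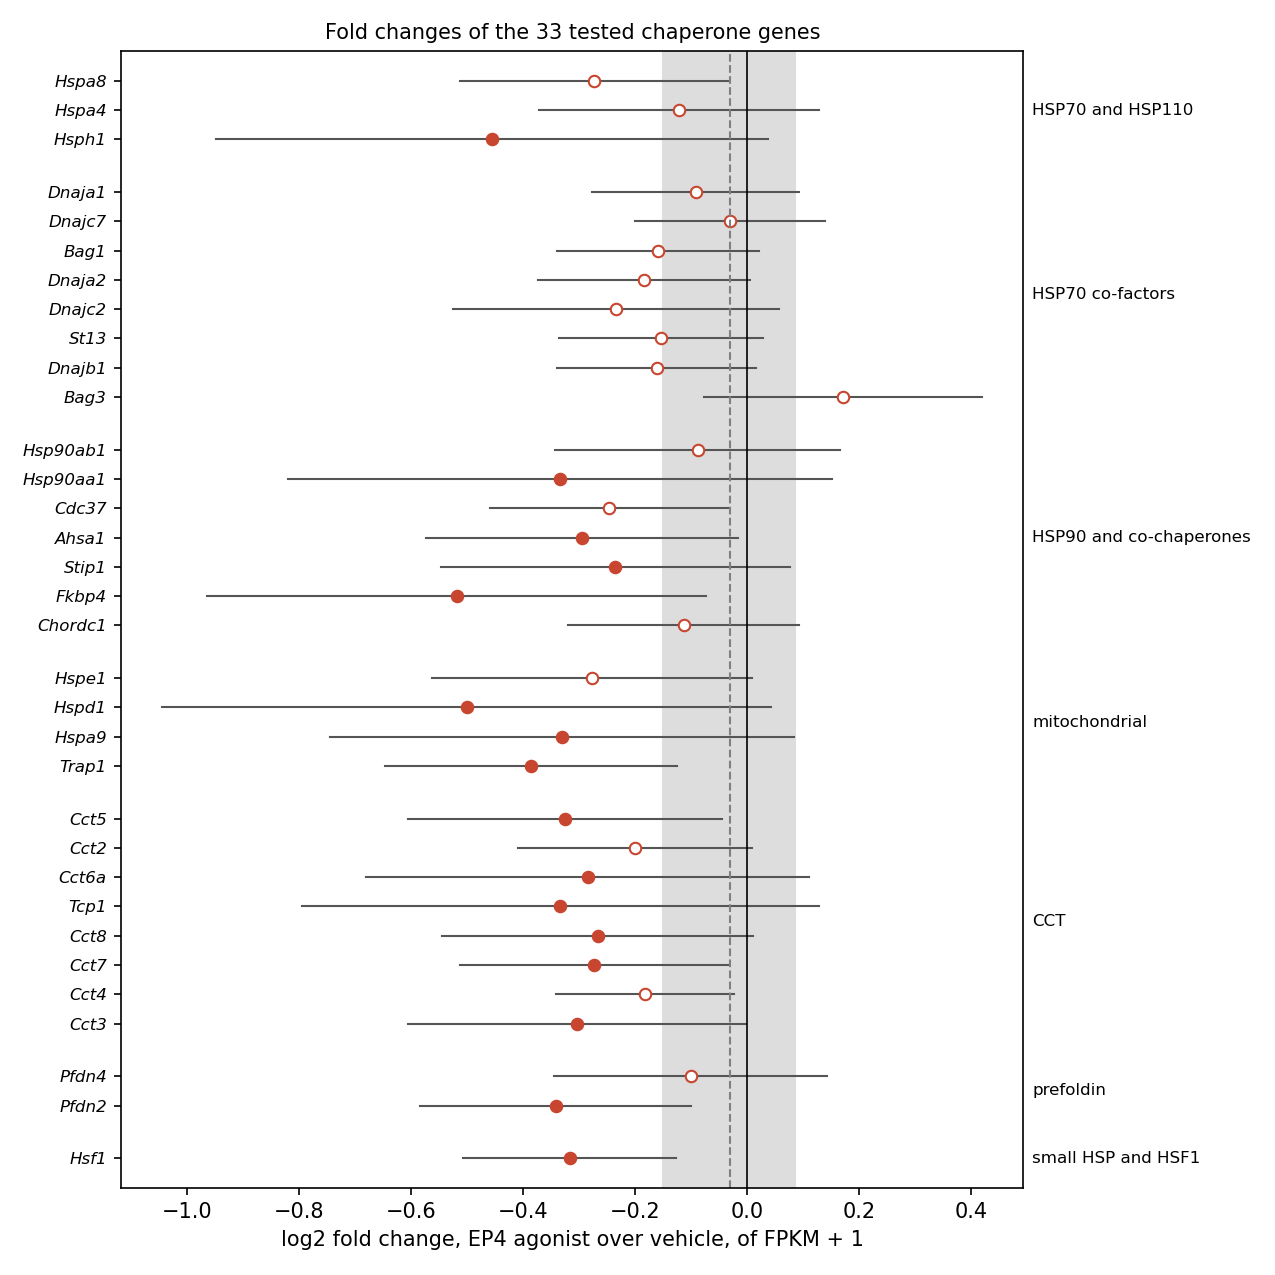
Log2 fold change of FPKM + 1, EP4 agonist over vehicle, for the 33 tested chaperone genes, grouped by class; points are limma estimates from 3 libraries per group and lines are 95% intervals of the fit without the replicate block. Filled points mark the 16 genes that fell in the blocked fit, the grey band spans the quartiles of all tested genes (-0.15 to 0.09), the dashed line is their median, and Bag3 alone lies to the right of 0.

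The difference between libraries of one treatment was of a similar size to the difference between treatments. Vehicle library 2 had the highest vehicle value in 30 of 33 chaperone genes and vehicle library 1 the lowest in 31, against 29.0% and 35.9% of all tested genes. Agonist library 2 had the highest agonist value in 30 of the 33 and agonist library 1 the lowest in 25, against 29.5% and 33.4% of tested genes. Replicate 2 was the highest library of both groups at once in 27 of 33, as in 15.2% of tested genes. In 22 of 33 members the range over the 3 vehicle libraries exceeded the difference between the group means, as it did in 78.0% of all tested genes. The median range on the log2(FPKM + 1) scale was 0.22 among agonist libraries and 0.31 among vehicle libraries, beside a median absolute log2 fold change of 0.27. Inferred sequencing depth was 4.98, 4.32 and 4.86 gigabases in agonist libraries 1, 2 and 3, where library 2 was the lowest. It was 4.95, 5.65 and 4.49 gigabases in vehicle libraries 1, 2 and 3, where library 2 was the highest. The NK cell marker Klrk1 stood apart in replicate 2, with 0.314, 3.25 and 0.147 FPKM in agonist libraries 1, 2 and 3 and 0.120, 2.09 and 0.150 FPKM in vehicle libraries 1, 2 and 3. Genes annotated as ribosomal RNA, mitochondrial ones included, were also highest in replicate 2 of both groups. Their share of summed FPKM was 0.709, 1.10 and 0.447% in agonist libraries 1, 2 and 3. In vehicle libraries 1, 2 and 3 it was 0.576, 0.638 and 0.372%. The part of these differences in the chaperone values was not tested.

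**Figure D2:**
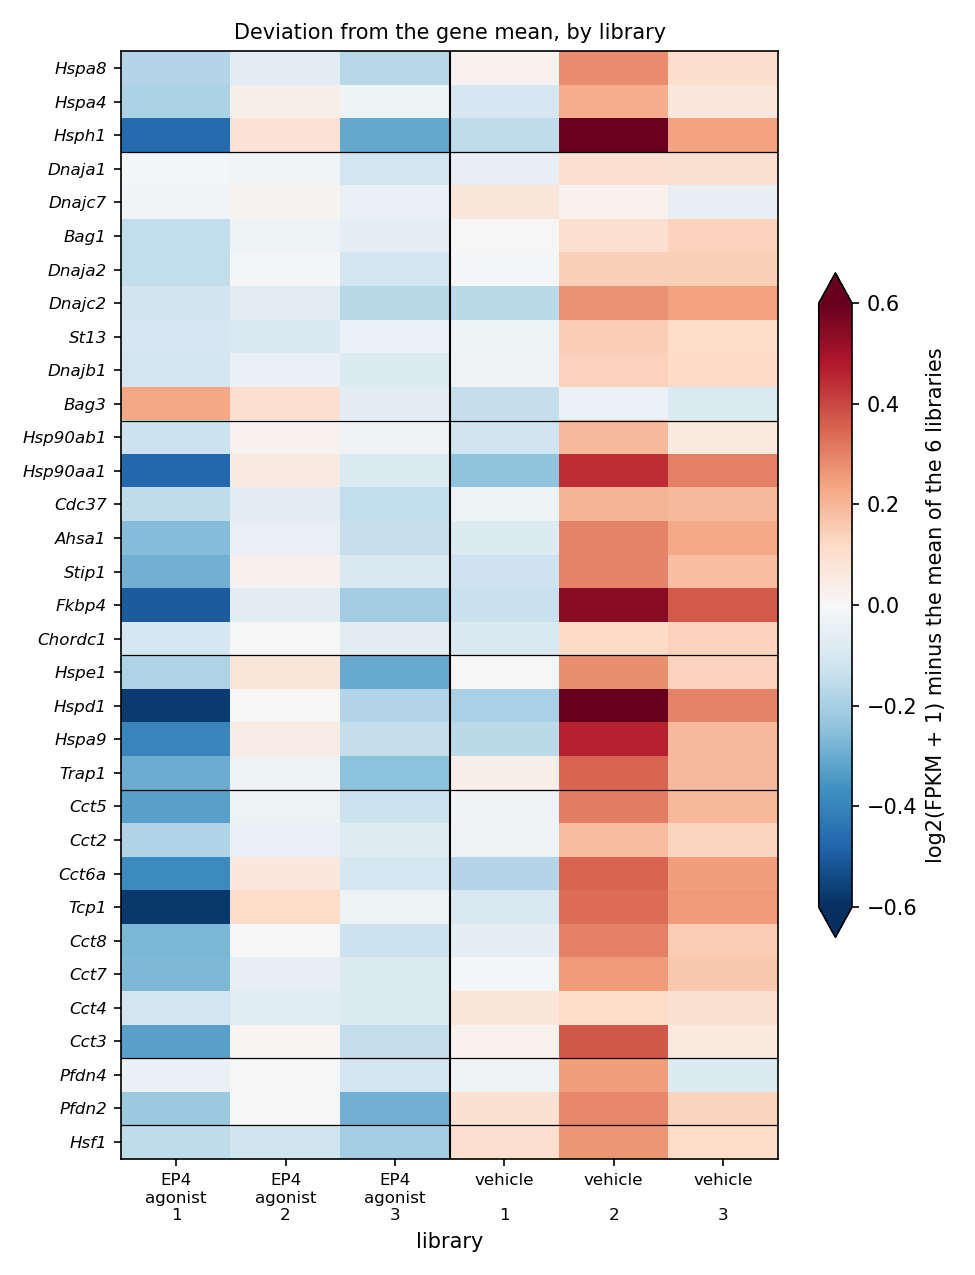
Deviation of each library from the gene's mean over the 6 libraries, in log2(FPKM + 1), for the 33 tested chaperone genes (rows, by class) in 3 EP4 agonist and 3 vehicle libraries (columns). Vehicle library 2 is the highest vehicle library in 30 of 33 genes, and agonist library 1 is the lowest agonist library in 25.

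Hsf1, which encodes the main transcriptional activator of heat shock genes, had the lowest p of any member without the block. Hsf1 (ENSMUSG00000022556.9, chromosome 15, 76477445 to 76500972, mm10) had 11.03, 11.3 and 10.6 FPKM in agonist libraries 1, 2 and 3, against 13.3, 15.1 and 13.4 FPKM in vehicle libraries 1, 2 and 3. All agonist values were below all vehicle values, and the 3 agonist libraries lay close together. The log2 fold change was -0.32 (SE 0.08; adjusted p = 0.174 in limma), and Hsf1 fell with the replicate block (adjusted p = 0.034). Its listed partner Hspb1, the gene for the small heat shock protein HSP27 and a heat shock target, was at 0.237 ± 0.241 FPKM in agonist libraries and 0.126 ± 0.105 FPKM in vehicle libraries (mean ± SD, n = 3 each). No library reached 1 FPKM, so Hspb1 was not tested.

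The strongly inducible HSP70 genes were nearly silent. Hspa1a and Hspa1b encode the stress-induced cytosolic HSP70 and lie close together on chromosome 17, at 34969190 to 34972156 and 34956436 to 34959238. Hspa1a had 0.412, 0.410 and 0.314 FPKM in agonist libraries 1, 2 and 3, against 0.368, 0.764 and 0.432 FPKM in vehicle libraries 1, 2 and 3. Hspa1b had 0.828, 0.463 and 0.476 FPKM in agonist libraries 1, 2 and 3, against 0.768, 1.19 and 0.723 FPKM in vehicle libraries 1, 2 and 3. The groups overlapped for both genes, only Hspa1b in vehicle library 2 reached 1 FPKM, and neither gene was tested. Their longest coding transcripts were identical at 99.3% of 2197 aligned bases, with an identical run of 638 bases, so the split of reads between Hspa1a and Hspa1b is uncertain. Against the constitutive Hspa8 the Hspa1a transcript was identical at 74.6% of 1927 aligned bases, with no identical run above 22 bases.

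Sequences of the heat shock element occurred in the promoter windows of several members. RefSeq windows (GRCm38.p6, 250 bases before to 50 after a start site) were found for 28 of the 36 genes. A pair of inverted units, GAANNTTC or TTCNNGAA, read on both strands, occurred in 14 of the 28 genes (50%) and in 17.0% of all 27025 genes with a window. A run of 3 units in alternating orientation, which contains the shorter motif, occurred in Hspd1, Hspe1, Hsph1 and Chordc1, 4 of 28 genes (14.3%), against 0.662% of all genes. The cyclic AMP response element TGACGTCA, searched because EP4 couples to cyclic AMP, occurred in Trap1 alone among the 28 (3.57%), against 2.03% of all genes. The stretches from 150 bases before to 30 after the start site are printed for Hspe1, Hsph1 and Chordc1, which hold the longer heat shock element, and for Trap1, with heat shock units or the cyclic AMP response element in capitals.
Hspe1, plus strand, chr1:55087998-55088177: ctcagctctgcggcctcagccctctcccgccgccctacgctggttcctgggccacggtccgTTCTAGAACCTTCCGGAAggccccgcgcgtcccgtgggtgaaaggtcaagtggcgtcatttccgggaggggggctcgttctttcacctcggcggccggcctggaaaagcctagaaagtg
Hsph1, minus strand, chr5:149636286-149636465: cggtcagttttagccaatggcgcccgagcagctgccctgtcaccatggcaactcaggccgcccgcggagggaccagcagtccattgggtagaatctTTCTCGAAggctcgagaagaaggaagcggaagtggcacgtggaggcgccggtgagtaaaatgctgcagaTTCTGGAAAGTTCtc
Chordc1, plus strand, chr9:18292117-18292296: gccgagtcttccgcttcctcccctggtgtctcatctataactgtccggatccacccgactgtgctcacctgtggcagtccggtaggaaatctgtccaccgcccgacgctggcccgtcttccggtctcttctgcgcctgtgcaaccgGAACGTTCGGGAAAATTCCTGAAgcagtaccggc
Trap1, minus strand, chr16:4077781-4077960: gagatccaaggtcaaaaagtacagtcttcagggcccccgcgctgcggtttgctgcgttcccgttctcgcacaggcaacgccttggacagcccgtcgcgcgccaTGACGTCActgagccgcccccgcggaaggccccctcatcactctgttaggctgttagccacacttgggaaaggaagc
The element shown for Hspe1 begins 89 bases before its start site. The same DNA lies 144 bases before a start site of Hspd1 on the other strand, since this pair of genes is divergent. The window of the other Hspd1 start site holds 0 heat shock elements of either length. In Chordc1 the capitals begin 4 bases before the start site, in Hsph1 the longer element begins 15 bases after the start site of the window shown, which is 1 of the 2 RefSeq gives for this gene, and the element in Trap1 begins 47 bases before it. These matches are letters in a window and no binding was measured. Of the 4 genes with the longer heat shock element, Hsph1 and Hspd1 fell with the block while Hspe1 and Chordc1 did not pass, and Hspa1a, Hspa1b and Hspb1, which hold the shorter one, were under 1 FPKM on average.

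Within the HSP70 and HSP110 family the constitutive Hspa8 carried nearly all of the transcript. Hspa8 (ENSMUSG00000015656.16, chromosome 9, 40800984 to 40805200), which encodes the constitutive cytosolic HSC70, had 880.0, 953 and 882 FPKM in agonist libraries 1, 2 and 3, against 1009, 1211 and 1069 FPKM in vehicle libraries 1, 2 and 3. It ranked 50th of the 12186 tested genes by mean FPKM. All agonist values were below all vehicle values, and the agonist mean was 17.4% lower. The log2 fold change was -0.27 (95% interval -0.51 to -0.03; limma, adjusted p = 0.306, and 0.0593 with the block), so Hspa8 passed neither test. Hsph1 (ENSMUSG00000029657.15, chromosome 5, 149614287 to 149636376) encodes HSP110, a nucleotide exchange factor for HSP70 that also holds unfolded proteins. It had 15.1, 22.5 and 16.9 FPKM in agonist libraries 1, 2 and 3, against 19.00, 32.5 and 25.2 FPKM in vehicle libraries 1, 2 and 3. Each pair was lower with the agonist, but the groups overlapped because vehicle library 1 lay under agonist library 2. Its log2 fold change was -0.46 (95% interval -0.95 to 0.04; limma, adjusted p = 0.392), and it fell with the block (adjusted p = 0.0253, and 0.031 with quantile normalization as well). Hspa4, a relative of Hsph1 in the HSP110 branch, was at 44.2 ± 3.58 FPKM in agonist libraries and 48.2 ± 5.45 FPKM in vehicle libraries (mean ± SD, n = 3 each) and did not pass (limma, adjusted p = 0.657, and 0.159 with the block). With Hspa1a and Hspa1b included, the class summed to 937, 1023 and 945 FPKM in agonist libraries 1, 2 and 3, against 1072, 1300 and 1143 FPKM in vehicle libraries 1, 2 and 3, and the sums did not overlap.

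The HSP70 co-factors stood closest to the background, with a median log2 fold change of -0.16. Limma called 0 of 8 with or without the block. Without the block, 0 of 8 had an unadjusted limma p under 0.05. With the block, Dnaja2, Dnajb1, Bag1 and St13 were under that unadjusted level, as were 3637 of the 12186 tested genes. Dnaja1 (ENSMUSG00000028410.13, chromosome 4, 40722150 to 40737149), a J protein that activates HSP70, was the highest of the 8 co-factors. It had 77.9, 77.7 and 72.7 FPKM in agonist libraries 1, 2 and 3, against 75.9, 84.1 and 83.7 FPKM in vehicle libraries 1, 2 and 3, and vehicle library 1 lay within the agonist values. Its log2 fold change was -0.09 (95% interval -0.28 to 0.09). Dnajc2 (ENSMUSG00000029014.14, chromosome 5, 21757267 to 21785251), a J protein that works with HSP70 at the ribosome, had the greatest difference of the class. It had 46.5, 48.2 and 44.9 FPKM in agonist libraries 1, 2 and 3, against 45.1, 61.3 and 59.9 FPKM in vehicle libraries 1, 2 and 3. Pairs 2 and 3 were lower with the agonist and pair 1 was slightly higher, with a log2 fold change of -0.23 (95% interval -0.53 to 0.06; limma, adjusted p = 0.45, and 0.194 with the block).

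In 4 of the 8 co-factor genes the agonist values lay wholly below the vehicle values, as in 12.1% of all tested genes. These 4 passed neither test. The J protein gene Dnaja2 averaged 49.8 ± 2.52 FPKM in agonist libraries and 56.7 ± 3.45 FPKM in vehicle libraries (SD, n = 3 each, as in the next values). Dnajb1, the J protein partner of inducible HSP70 and a heat shock target, averaged 35.9 ± 0.935 FPKM with the agonist and 40.3 ± 2.44 FPKM with vehicle. Bag1, an exchange factor for HSP70, averaged 61.8 ± 2.66 FPKM with the agonist and 69.1 ± 3.34 FPKM with vehicle. St13, which encodes the HSP70-interacting protein HIP, averaged 48.02 ± 1.19 FPKM with the agonist and 53.6 ± 3.46 FPKM with vehicle. These 4 differences were between 10.4 and 12.2% of the vehicle mean. Dnajc7, a J protein with tetratricopeptide repeats that bind HSP70 and HSP90, averaged 76.1 ± 1.64 FPKM with the agonist and 77.7 ± 3.26 FPKM with vehicle. Its log2 fold change of -0.03 turned positive under quantile normalization (0.05), under upper quartile scaling (0.01) and with coverage in place of FPKM (0.0034), and its model overlaps that of Cnp on the opposite strand by 8912 bases. Bag3, an exchange factor induced by stress, averaged 5.61 ± 0.680 FPKM with the agonist and 4.85 ± 0.217 FPKM with vehicle and was higher with the agonist in all 3 pairs. Its log2 fold change was 0.17 (95% interval -0.08 to 0.42; limma, adjusted p = 0.513, and 0.281 with the block).

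**Figure D3:**
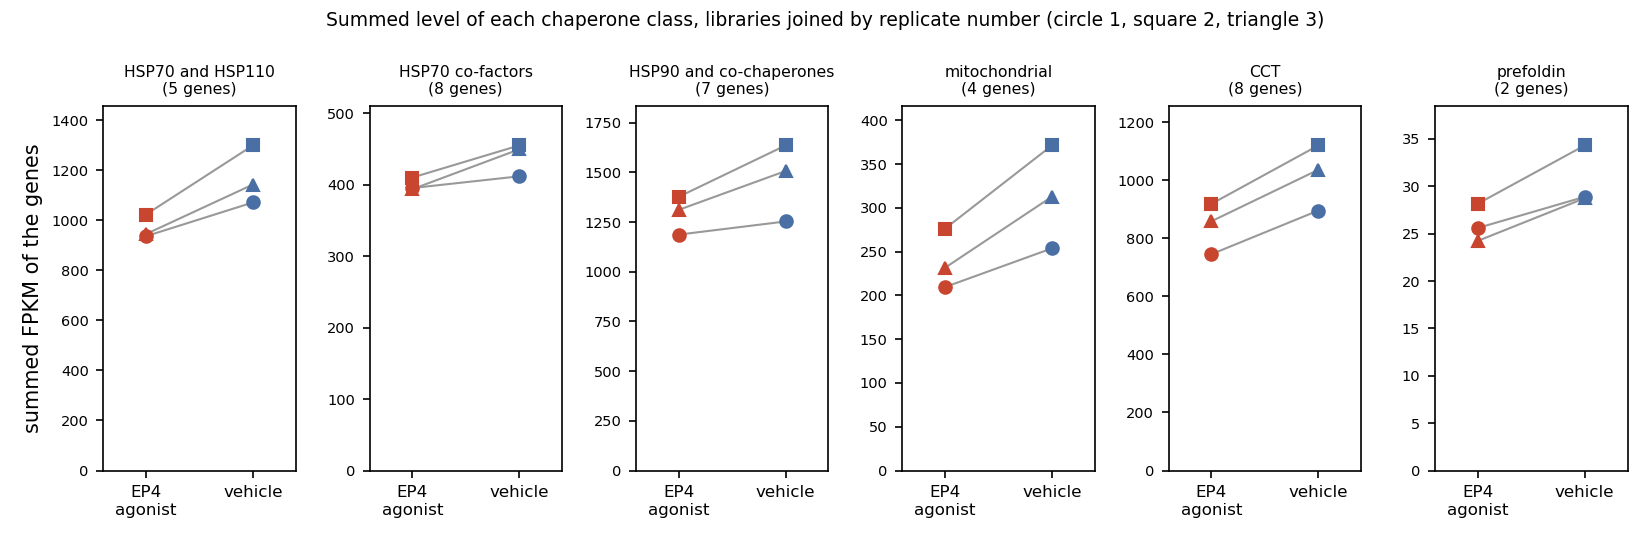
Summed FPKM of 6 chaperone classes (vertical axes, each from 0) in 3 EP4 agonist and 3 vehicle libraries, with lines joining libraries of the same replicate number (circle 1, square 2, triangle 3). Every line is lower at its agonist end; the mitochondrial sum was 23.5% and the HSP70 co-factor sum 8.91% lower.

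In the HSP90 class the more abundant cytosolic form had the smallest fold change, and the inducible form and 3 co-chaperone genes fell with the block. Hsp90ab1 (ENSMUSG00000023944.14, chromosome 17, 45567775 to 45573271) encodes the constitutive HSP90-beta and ranked 69th of all tested genes. It had 733, 814 and 790.3 FPKM in agonist libraries 1, 2 and 3, against 738, 919 and 836 FPKM in vehicle libraries 1, 2 and 3. The groups overlapped, and the log2 fold change was -0.09 (95% interval -0.34 to 0.17; limma, adjusted p = 0.767, and 0.404 with the block). Hsp90aa1 (ENSMUSG00000021270.13, chromosome 12, 110690605 to 110702728) encodes the stress-inducible HSP90-alpha. It had 130.3, 188 and 171 FPKM in agonist libraries 1, 2 and 3, against 153, 246 and 223 FPKM in vehicle libraries 1, 2 and 3. All 3 pairs were lower with the agonist, while the groups overlapped, as replicate 1 was low in both. Hsp90aa1 had a log2 fold change of -0.33 and fell with the block (limma, adjusted p = 0.0338, against 0.515 without the block and 0.0675 with the block and quantile normalization). The longest coding transcripts of Hsp90aa1 and Hsp90ab1 were identical at 76.3% of 2179 aligned bases with no identical run over 33 bases. Whether the fold changes of Hsp90aa1 and Hsp90ab1 differ from each other was not tested.

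Among the co-chaperones of HSP90, Fkbp4 had the greatest log2 fold change of all members. Fkbp4 (ENSMUSG00000030357.10, chromosome 6, 128429735 to 128438677) encodes FKBP52, an immunophilin that works with HSP90 on steroid receptors. It had 37.6, 51.1 and 46.3 FPKM in agonist libraries 1, 2 and 3, against 48.8, 78.5 and 69.6 FPKM in vehicle libraries 1, 2 and 3. The groups overlapped only through vehicle library 1, and the agonist mean was 31.5% lower. The log2 fold change was -0.52 (95% interval -0.96 to -0.07, and -0.68 to -0.35 with the block), and Fkbp4 fell with the block (limma, adjusted p = 0.021, against 0.298 without it). Ahsa1 (ENSMUSG00000021037.6, chromosome 12, 87266746 to 87273997), whose product AHA1 stimulates the ATPase of HSP90, had 74.3, 86.4 and 80.99 FPKM in agonist libraries 1, 2 and 3, against 84.2, 109.7 and 105 FPKM in vehicle libraries 1, 2 and 3. Agonist library 2 lay above vehicle library 1, so the groups overlapped. Ahsa1 fell with the block (limma, log2 fold change -0.29, adjusted p = 0.0411), and its model shares 76 bases with AC151967.1 on the same strand, a model that averaged 90.4 ± 7.70 FPKM in agonist and 114 ± 12.9 FPKM in vehicle libraries.

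Stip1 (ENSMUSG00000024966.8, chromosome 19, 7020696 to 7040026) encodes HOP, the adaptor that hands clients over to HSP90. It had 72.7, 90.6 and 83.2 FPKM in agonist libraries 1, 2 and 3, against 81.6, 109 and 101 FPKM in vehicle libraries 1, 2 and 3. It had overlapping groups and the blocked p nearest the threshold among the 16 (limma, log2 fold change -0.24, adjusted p = 0.0457, and 0.112 with quantile normalization as well). Cdc37, the co-chaperone for kinases, averaged 99.6 ± 3.23 FPKM in agonist libraries and 119 ± 10.6 FPKM in vehicle libraries (SD, n = 3 each). Its agonist values were all below its vehicle values, and it did not pass (limma, adjusted p = 0.3, and 0.0662 with the block). Chordc1, which encodes the HSP90-binding protein CHP1, averaged 42.3 ± 1.69 FPKM in agonist libraries and 45.9 ± 4.06 FPKM in vehicle libraries (SD, n = 3 each) and did not pass (limma, adjusted p = 0.613, and 0.241 with the block).

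The mitochondrial chaperones had the lowest median of any class with more than 1 tested gene, a log2 fold change of -0.36, and 3 of 4 fell with the block. Hspd1 (ENSMUSG00000025980.14, chromosome 1, 55077835 to 55088243) encodes HSP60, the chaperonin of the mitochondrial matrix. It had 58.05, 87.05 and 77.1 FPKM in agonist libraries 1, 2 and 3, against 75.96, 137 and 107 FPKM in vehicle libraries 1, 2 and 3. The spread was wide in both groups, vehicle library 1 lay within the agonist values, and every pair was lower with the agonist. Hspd1 fell with the block (limma, log2 fold change -0.50, 95% interval -1.04 to 0.04 without and -0.67 to -0.33 with the block, adjusted p = 0.393 without and 0.0226 with it). Hspe1 (ENSMUSG00000073676.4, chromosome 1, 55088132 to 55091307), the lid HSP10 of the same chaperonin, had the highest mean of the class over the 6 libraries. Among vehicle libraries alone Hspd1 had the slightly higher mean, 106.7 FPKM against 104.7 FPKM for Hspe1. Hspe1 had 83.1, 99.7 and 76.7 FPKM in agonist libraries 1, 2 and 3, against 94.7, 115 and 104 FPKM in vehicle libraries 1, 2 and 3. Its groups overlapped through agonist library 2, and it did not pass (limma, log2 fold change -0.28, adjusted p = 0.374, and 0.0652 with the block). The Hspd1 and Hspe1 models overlap by 112 bases on opposite strands, and whether the counting used strand is not given in the sources used here. Of the pseudogene models named after members, Hspd1-ps3 alone averaged above 1 FPKM, at 2.54 FPKM over the 6 libraries.

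Hspa9 (ENSMUSG00000024359.8, chromosome 18, 34937414 to 34954357) encodes mortalin, the HSP70 that helps pull proteins into the matrix. It had 43.1, 58.9 and 51.6 FPKM in agonist libraries 1, 2 and 3, against 50.98, 78.9 and 65.5 FPKM in vehicle libraries 1, 2 and 3. Replicate 1 was the lowest and replicate 2 the highest in both groups, and each pair was lower with the agonist. Hspa9 fell with the block (limma, log2 fold change -0.33, adjusted p = 0.031, against 0.453 without it). Trap1 (ENSMUSG00000005981.11, chromosome 16, 4039971 to 4077827), the mitochondrial HSP90, had 25.3, 30.6 and 26.2 FPKM in agonist libraries 1, 2 and 3, against 32.1, 40.2 and 36.02 FPKM in vehicle libraries 1, 2 and 3. Its groups did not overlap. Trap1 had a log2 fold change of -0.39 (95% interval -0.65 to -0.12) and the lowest blocked p of the members (limma, adjusted p = 0.0209, and 0.21 without the block). The mitochondrial class summed to 210, 276 and 232 FPKM in agonist libraries 1, 2 and 3, against 254, 371 and 313 FPKM in vehicle libraries 1, 2 and 3, and agonist library 2 lay above vehicle library 1.

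All 8 subunits of CCT were lower with the agonist in each of the 3 pairs, and 6 of the 8 fell with the block. CCT stacks rings of 8 different subunits, and the log2 fold changes of the 8 genes lay in a narrow band, between -0.33 and -0.18. Cct5 (ENSMUSG00000022234.14, chromosome 15, 31590800 to 31601847), the subunit gene with the highest FPKM, had 136, 167 and 156 FPKM in agonist libraries 1, 2 and 3, against 168, 212 and 196 FPKM in vehicle libraries 1, 2 and 3. Its groups did not overlap, and it fell with the block (limma, log2 fold change -0.32, adjusted p = 0.0246, against 0.301 without the block). Tcp1 (ENSMUSG00000068039.12, chromosome 17, 12915701 to 12925067), the founding subunit CCT-alpha, had the greatest fold change of the class. It had 70.7, 115 and 104 FPKM in agonist libraries 1, 2 and 3, against 99.6, 134 and 127 FPKM in vehicle libraries 1, 2 and 3. The groups overlapped, and agonist library 1 was far below the other 5. Tcp1 fell with the block (limma, log2 fold change -0.33, adjusted p = 0.0444, against 0.494 without it).

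Cct3 (ENSMUSG00000001416.13, chromosome 3, 88297116 to 88321767), subunit gamma, had 66.7, 84.5 and 75.7 FPKM in agonist libraries 1, 2 and 3, against 84.99, 109 and 87.4 FPKM in vehicle libraries 1, 2 and 3, and the groups came within 1 FPKM of each other without overlapping. It fell with the block (limma, log2 fold change -0.30, adjusted p = 0.035). Cct6a (ENSMUSG00000029447.11, chromosome 5, 129786998 to 129846371), subunit zeta, had 94.4, 129 and 114 FPKM in agonist libraries 1, 2 and 3, against 109, 157 and 147 FPKM in vehicle libraries 1, 2 and 3, with vehicle library 1 below agonist libraries 2 and 3. It fell with the block (limma, log2 fold change -0.28, adjusted p = 0.0368). Cct7 (ENSMUSG00000030007.8, chromosome 6, 85451514 to 85468475), subunit eta, had 77.3, 90.1 and 87.7 FPKM in agonist libraries 1, 2 and 3, against 92.6, 112 and 105 FPKM in vehicle libraries 1, 2 and 3, without overlap. It was the only CCT gene to fall with the block both without and with quantile normalization (limma, log2 fold change -0.27, adjusted p = 0.0301 and 0.0486). Cct8 (ENSMUSG00000025613.13, chromosome 16, 87483326 to 87495873), subunit theta, had 85.96, 104 and 95.2 FPKM in agonist libraries 1, 2 and 3, against 100, 129 and 116 FPKM in vehicle libraries 1, 2 and 3, with vehicle library 1 below agonist library 2. It fell with the block (limma, log2 fold change -0.27, adjusted p = 0.0342).

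The other subunit genes, Cct2 (beta) and Cct4 (delta), did not pass. Their agonist values lay all below their vehicle values, as in 12.1% of all tested genes. Cct2 averaged 141 ± 6.78 FPKM in agonist libraries and 162 ± 12.02 FPKM in vehicle libraries (SD, n = 3 each; limma, adjusted p = 0.376, and 0.0589 with the block). Cct4 averaged 82.2 ± 1.20 FPKM in agonist libraries and 93.3 ± 1.11 FPKM in vehicle libraries (SD, n = 3 each; limma, adjusted p = 0.306, and 0.0583 with the block). Cct4 differed least between libraries of a group, and was also the subunit gene with the smallest fold change. Summed over the 8 genes, CCT stood at 745, 918 and 858 FPKM in agonist libraries 1, 2 and 3, against 895, 1120 and 1036 FPKM in vehicle libraries 1, 2 and 3, with agonist library 2 above vehicle library 1. The models of Tcp1, Cct6a, Cct7 and Cct8 overlap expressed models on the other strand, Mrpl18 and Acat3, Psph, Pradc1 and Usp16 in that order.

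**Figure D4:**
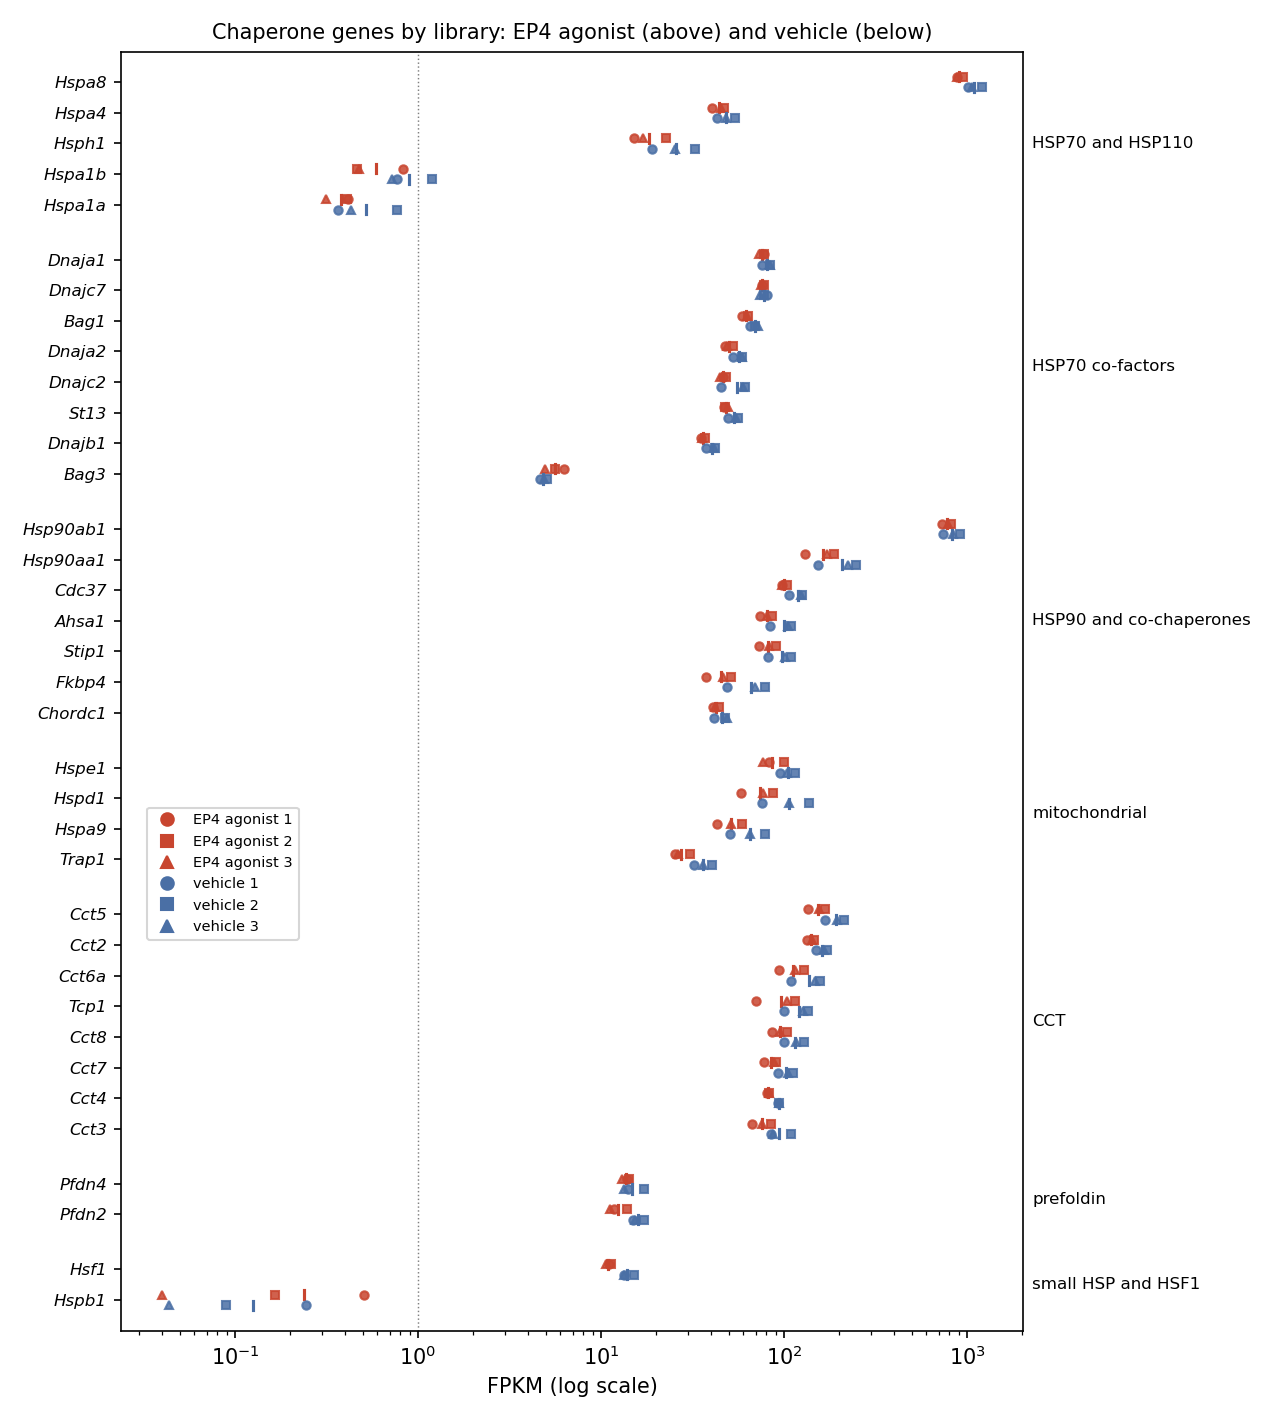
FPKM (log axis) of each of the 36 chaperone genes in 3 EP4 agonist libraries (upper points) and 3 vehicle libraries (lower points), grouped by class, with bars at the group means and a dotted line at 1 FPKM, the filter for testing. Levels run from Hspa8 and Hsp90ab1 at the top down to Hspa1a and Hspb1, whose values are all under 1 FPKM.

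Prefoldin, which carries nascent actin and tubulin to CCT, was covered by 2 of its subunit genes, at lower levels. Pfdn4 (ENSMUSG00000052033.13, chromosome 2, 170496428 to 170519123) was the higher by a small margin over the 6 libraries, while Pfdn2 was the higher among vehicle libraries. Pfdn4 had 13.8, 14.2 and 13.02 FPKM in agonist libraries 1, 2 and 3, against 14.00, 17.1 and 13.4 FPKM in vehicle libraries 1, 2 and 3. The groups overlapped, and it did not pass (limma, log2 fold change -0.10, adjusted p = 0.711, and 0.37 with the block). Pfdn2 (ENSMUSG00000006412.10, chromosome 1, 171345670 to 171359254) had 11.8, 13.9 and 11.2 FPKM in agonist libraries 1, 2 and 3, against 14.9, 17.2 and 15.4 FPKM in vehicle libraries 1, 2 and 3. Its groups did not overlap, and it fell with the block (limma, log2 fold change -0.34, adjusted p = 0.0296, against 0.225 without it).

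Across classes, the share that fell with the block was 1 of 3 tested HSP70 and HSP110 genes, 0 of 8 HSP70 co-factors, 4 of 7 HSP90 genes, 3 of 4 mitochondrial genes, 6 of 8 CCT genes and 1 of 2 prefoldin genes, together with Hsf1. With quantile normalization added, the corresponding counts were 1, 0, 1, 3, 1 and 1, again with Hsf1. Of all tested genes, 6.41% fell with the block and 3.91% with quantile normalization added. The HSP70 co-factors summed to 396, 410.2 and 394 FPKM in agonist libraries 1, 2 and 3, against 412, 455 and 449.8 FPKM in vehicle libraries 1, 2 and 3, without overlap. The HSP90 class summed to 1187, 1377 and 1311 FPKM in agonist libraries 1, 2 and 3, against 1253, 1635 and 1507 FPKM in vehicle libraries 1, 2 and 3, with agonist libraries 2 and 3 above vehicle library 1. The prefoldin pair summed to 25.6, 28.2 and 24.2 FPKM in agonist libraries 1, 2 and 3, against 28.9, 34.3 and 28.7 FPKM in vehicle libraries 1, 2 and 3, without overlap. Median log2 fold changes were -0.27, -0.16, -0.25, -0.36, -0.28 and -0.22 in the order in which the classes stand in the count above. Differences between classes were not tested. The log2 fold changes ran from -0.46 to -0.12 for HSP70 and HSP110, -0.23 to 0.17 for the co-factors, -0.52 to -0.09 for HSP90, -0.50 to -0.28 for the mitochondrial genes, -0.33 to -0.18 for CCT and -0.34 to -0.10 for prefoldin. Each mitochondrial gene lay below each HSP70 co-factor.

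Genes of the same folding network outside the 36 had a pooled median close to that of all tested genes, but their classes differed. The median log2 fold change was -0.16 for other mitochondrial folding and proteolysis genes and -0.14 for other HSP90 co-chaperones. It was -0.09 for exchange factors, -0.06 for prefoldin relatives and -0.01 for CCT relatives. For J proteins it was 0.03, for small heat shock proteins and heat shock factors 0.08, and for the HSP70 family 0.10. Of 71 listed relatives and partners, other J proteins, exchange factors, HSP90 co-chaperones, small heat shock proteins and mitochondrial proteases among them, 62 were tested and 37 had a negative log2 fold change, with a median of -0.05. Limma without the block called 0 of the 62, beside 0.0492% of all tested genes called lower and 0.345% higher. An unadjusted limma p under 0.05 was found for 10 of the 62 and for 1701 of the 12186 tested genes. In the blocked fit 5 fell and 0 rose, beside 6.41% and 4.09% of all tested genes. The 5 were Fkbp5, Ppid, Pfdn6, Clpp and Lonp1. With quantile normalization added, 3 fell, beside 3.91% of all tested genes. Fkbp5, an immunophilin co-chaperone related to Fkbp4, had 22.8, 27.8 and 27.9 FPKM in agonist libraries 1, 2 and 3, against 31.2, 38.5 and 38.2 FPKM in vehicle libraries 1, 2 and 3, without overlap. It fell with the block (limma, log2 fold change -0.45, adjusted p = 0.0167). Ppid, which encodes the HSP90 cyclophilin CYP40, averaged 24.6 ± 4.71 FPKM with the agonist and 31.8 ± 6.32 FPKM with vehicle, and Pfdn6, a further prefoldin subunit gene, averaged 28.2 ± 1.48 FPKM with the agonist and 36.3 ± 1.60 FPKM with vehicle (SD, n = 3 each). Both fell with the block (limma, adjusted p = 0.0209 for Ppid and 0.0209 for Pfdn6). Ptges3, named after its values were seen because its product p23 is both an HSP90 co-chaperone and a prostaglandin E synthase, averaged 50.3 ± 2.70 FPKM in agonist libraries and 64.7 ± 10.6 FPKM in vehicle libraries (SD, n = 3 each) and did not pass (limma, adjusted p = 0.296, and 0.0565 with the block).

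Actin and tubulin genes, whose products are the main clients of CCT and prefoldin, went in both directions. Of 11 listed genes limma called 0 without the block, beside 0.0492% of all tested genes called lower and 0.345% higher. An unadjusted limma p under 0.05 was found for 6 of the 11 and for 1701 of the 12186 tested genes. In the blocked fit 5 fell and 2 rose, beside 6.41% and 4.09% of all tested genes. With quantile normalization added 1 fell and 2 rose, beside 477 and 519 of the 12186. Actg1, for cytoplasmic gamma-actin, had 1652, 1779.7 and 1869 FPKM in agonist libraries 1, 2 and 3, against 1246, 1263 and 1242 FPKM in vehicle libraries 1, 2 and 3. Every agonist value was above every vehicle value, and Actg1 rose with the block (limma, log2 fold change 0.50, adjusted p = 0.0246, against 0.0901 without it). Tubb6, a minor beta-tubulin, averaged 5.24 ± 0.690 FPKM with the agonist and 3.47 ± 0.723 FPKM with vehicle (SD, n = 3 each) and rose with the block (limma, adjusted p = 0.0333). The major alpha-tubulin gene Tuba1b averaged 594 ± 58.1 FPKM with the agonist and 762 ± 57.7 FPKM with vehicle (SD, n = 3 each) and fell with the block (limma, log2 fold change -0.36, adjusted p = 0.0275). Tuba4a and Tuba1c also fell with the block (limma, log2 fold changes -0.29 and -0.27, adjusted p = 0.0311 and 0.0327), as did Tubb4b and Tubb5. Tubulin genes are close paralogs, so the split of reads among them is uncertain.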

How the data were processed

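Each of the 6 libraries has a table of gene abundances. The authors deposited FPKM and coverage per gene model, per the file headers. Trim Galore, HISAT2 and the mm10 build are named in the submitters' processing notes. For the abundance program, its annotation and its use of strand, the sources used here give no name or setting. Groups and replicate numbers came from the sample titles. Deposited FPKM were analysed as log2(FPKM + 1), and 12186 reference genes that reached 1 FPKM in at least 3 of the 6 libraries were tested. Fragment counts are unknown, so no counting intervals or floors are given, and fold changes of low genes are understated. The deposited TPM column was not used, since its sum exceeds what such a column can hold.

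Agonist was compared with vehicle in limma 3.58.1 (intensity trend, robust variances with statmod 1.5.0, R 4.3.3), two-sided, with Benjamini-Hochberg adjustment over all tested genes and a threshold of 0.05. "Rose" and "fell" refer to this threshold. The fit was also run on simulated data with a replicate effect built in and genes varying independently. Such a run cannot judge the pairing, or the blocked calls of genes that vary together. Deviations from group means correlated at 0.512, 0.404 and 0.321 for libraries numbered 1, 2 and 3 and at -0.353 to 0.00209 for other pairs, so the number was also fitted as a block. Deviations sum to 0 within a group, so these correlations are not independent.

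The 36 genes, the network list and the markers were chosen with earlier results of these data known. By rule, every library value is given for members past either test, for the highest and the most changed member of each class, for Hspa1a, Hspa1b and Hsf1, and up to 8 network genes with the lowest p among those past either test are named. Clpp, Lonp1, Tubb4b, Tubb5, Ptges3, Klrk1, Hba-a1 and Hba-a2 fall outside this rule and were named after their values were seen. Motifs were searched in RefSeq windows on both strands, and transcripts of GENCODE M21 were aligned locally with Biopython 1.88. Tables were read with pandas 2.3.3 in Python 3.11.15 and plots drawn with matplotlib 3.10.9. Alternatives were the pseudocount, the filter, the scaling, coverage in place of FPKM, limma settings, the block and leaving out libraries.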

Additional observations from a re-analysis of the deposited data

How the results depend on the processing

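The direction of the chaperone values depended little on the processing, and the number of calls depended on the replicate block. Against 0 members that fell without a block, the replicate block gave 16, block and quantile normalization 8, block and upper quartile scaling 11, block and coverage 20, block and a minimum of 5 FPKM 19, and the block without 1 replicate pair 0 to 2. No alternative without the block called a member, with 3 to 26 of them at an unadjusted limma p under 0.05, and no alternative called a member higher. The 26 arose without vehicle library 1, where 2588 of the 12186 tested genes were under that unadjusted level. The 3 arose without vehicle library 2, agonist library 1 or agonist library 3, where 1033, 1219 and 1224 of the 12186 were. All 12186 tested genes gave 498 higher and 781 lower calls with the block, 519 and 477 with quantile normalization added and 547 and 468 with upper quartile scaling added. With the block and coverage they gave 806 and 1206 (9.90% lower), beside 6.41% lower for the block alone. With the block and a minimum of 5 FPKM, 8592 tested genes gave 496 and 951 (11.1% lower). Blocked fits without pairs 1, 2 and 3 gave 151, 0 and 1 higher calls and 90, 0 and 0 lower calls. The median log2 fold change of the members stayed between -0.35 and -0.18 in all 21 alternatives. Its size depended on single libraries: it was -0.35 without vehicle library 1 and -0.18 without vehicle library 2 or without agonist library 1. The medians of all tested genes in these fits were -0.02, -0.04 and -0.04. Of the fold changes of single members, 6 reversed, all of Dnajc7, at 0.012, 0.0481 and 0.0034 for upper quartile scaling, quantile normalization and coverage, each without and with the block. What depth limits could not be assessed, since fragment counts are unknown.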
